A study of Mus musculus with 11 samples.

Results

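The genes described here are the 37 named genes of glycolysis, glucose and lactate transport, pyruvate entry into mitochondria and the response to low oxygen. The rule names them by symbol and uses no measured value, but the genes were chosen with earlier results of these data known. All 37 matched 1 row each among the 53453 gene rows of the deposited table. RNA sequencing was done on primary neurospheres, floating cultures grown from stem and progenitor cells of embryonic mouse brain, at E15.5. The 6 control libraries carry the treatment label none and the 5 other libraries the label Klf5 overexpression (here Klf5OE). The protocol in the labels counts as many embryos as libraries in each group, so a library was taken as a separate embryo. The labels state neither the mouse strain nor the way in which Klf5 was raised, and they name 2 library kits without saying which library each served. Values are TPM, a measure of transcript abundance divided by transcript length and by library total, so that levels can be set side by side between genes.

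Glycolysis splits glucose into pyruvate. Glucose enters through facilitative carriers, is trapped by hexokinase, passes the committed step at phosphofructokinase and leaves as lactate through lactate dehydrogenase and monocarboxylate carriers, or as acetyl-CoA through the pyruvate dehydrogenase complex. When oxygen is low, prolyl hydroxylases no longer mark the HIF alpha proteins for destruction, and HIF then raises many of these same genes at DNA sites with an ACGTG or GCGTG core. Neural stem and progenitor cells are known for strong aerobic glycolysis, and neurosphere interiors can be poor in oxygen.

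The listed rows of a library summed to 730832 to 821967 TPM with overexpression and to 814208 to 846780 TPM in controls, and depth is not known from TPM. The share taken by rows that resemble ribosomal RNA was 12.4 to 30.2% and 19.3 to 31.2% of these sums. Klf5 stood at 53.6 to 93.0 TPM in the overexpression libraries and at 0.371 to 1.29 TPM in controls. Of the 7 neural stem and progenitor markers all were detected in every library, and their summed level was 3591 to 5555 TPM with overexpression against 4603 to 7707 TPM in controls. Vim was called higher and Slc1a3 lower. Fabp7 had the highest mean, 2105 TPM with overexpression and 3596 TPM in controls, and so weighs most in the sum. Hes5 averaged 69.0 and 125 TPM. Fabp7 and Hes5 lay below the control mean in all 5 overexpression libraries but were not called, nor were Sox2, Nes and Pax6. Oligodendrocyte lineage markers (4 of 4 detected) summed to 1599 to 1949 TPM against 1609 to 2792 TPM, and the 4 neuronal markers to 191 to 295 TPM against 222 to 326 TPM. Map2 gave most of the neuronal sum, with means of 204 and 240 TPM. Rbfox3 averaged 2.17 and 4.83 TPM, Dcx 5.78 and 7.38 TPM, and Tubb3 23.96 and 24.65 TPM. Map2 and Rbfox3 lay below the control mean in all 5 overexpression libraries, but none of the 4 neuronal markers was called. The 5 microglial markers summed to at most 1.99 TPM, the 4 endothelial markers to at most 1.06 TPM and the 4 erythroid markers to at most 0.113 TPM in any library, with Cx3cr1, Aif1, Hbb-bs, Hba-a1 and Alas2 listed at 0 in all of them. In bulk RNA, fewer cells of a type and less RNA per cell cannot be told apart, and the part of the marker shifts in the results below was not tested.

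With Klf5 overexpression, 3 of the 33 members that were abundant enough to test differed from controls, where abundant enough means at least 1 TPM in at least 5 libraries. Slc2a1, which encodes the main glucose carrier GLUT1, fell 3.07-fold in mean TPM. Pfkp, which encodes the platelet type of phosphofructokinase, rose 3.41-fold. Ldhb, which encodes the heart type subunit of lactate dehydrogenase, fell 1.38-fold. The test was limma on log2(TPM + 1) with Benjamini-Hochberg adjustment over all 13549 genes tested, at an adjusted p of 0.05. The 1 higher member is 3.03% of those tested, beside 2.29% of all tested genes, and the 2 lower members are 6.06%, beside 1.43%. The lower count rests in part on Ldhb (limma adjusted p = 0.0477), and it was 1 in 9 of 11 fits that left out a library and under 5 of 9 other settings, and 3 or 4 under the other 4 settings. Slc2a1 and Pfkp were also the 2 members whose control and overexpression libraries did not overlap in TPM, against 3.29% of all tested genes. The median log2 fold change was -0.13 over the tested members and -0.04 over all tested genes. The sign of 10 small differences depended on the setting, those of Slc16a1, Pfkl, Gapdh, Ldha, Pfkfb2, Pfkfb3, Pdk2, Hif1a, Ankrd37 and P4ha1.

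The promoters of these 3 genes are shown because 2 of them fell and 1 rose when a factor that binds CACCC boxes and GC-rich DNA was raised. Each run holds the 250 bases before the RefSeq start (build GRCm38.p6), 5′ to 3′ on the gene's strand, and capitals mark the KLF core CACCC and the HIF cores ACGTG and GCGTG, on either strand. The Slc2a1 window lies at chr4:119108495-119108744 on the plus strand, that of Pfkp at chr13:6648772-6649021 and that of Ldhb at chr6:142507958-142508207, the last pair on the minus strand. The gene coordinates given below come from another annotation, GENCODE. It puts the starts of Slc2a1 (119108711) and Pfkp (6648777) inside these windows, so the last marked motif of each reaches into the gene as placed there.
Slc2a1: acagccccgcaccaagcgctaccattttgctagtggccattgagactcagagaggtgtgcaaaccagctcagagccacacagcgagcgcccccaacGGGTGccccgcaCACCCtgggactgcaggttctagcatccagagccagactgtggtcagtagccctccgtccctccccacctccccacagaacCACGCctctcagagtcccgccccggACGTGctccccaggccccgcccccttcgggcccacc
Pfkp: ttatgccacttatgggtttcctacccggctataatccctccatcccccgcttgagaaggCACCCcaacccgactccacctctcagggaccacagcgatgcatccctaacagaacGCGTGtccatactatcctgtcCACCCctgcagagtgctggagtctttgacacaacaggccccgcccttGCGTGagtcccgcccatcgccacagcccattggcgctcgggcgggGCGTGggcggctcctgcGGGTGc
Ldhb: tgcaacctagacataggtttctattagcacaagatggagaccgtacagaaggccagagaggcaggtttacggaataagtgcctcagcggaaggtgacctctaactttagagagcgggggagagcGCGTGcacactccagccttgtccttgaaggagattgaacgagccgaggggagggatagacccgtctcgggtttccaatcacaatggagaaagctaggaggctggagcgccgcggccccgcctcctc

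The Slc2a1 window held 2 CACCC cores, 1 ACGTG and 1 GCGTG. The Pfkp window held 3 CACCC cores, 3 GCGTG and 0 ACGTG. The Ldhb window held 1 GCGTG and none of the other motifs. Only these cores were searched for, so other GC-rich stretches stay unmarked. GC made up 66.4% of the Slc2a1 window, 62.8% of the Pfkp window and 56.4% of the Ldhb window. No marked motifs shared a base. Of 32851 RefSeq promoter windows of the same length, not matched for GC content, 52.0% held CACCC, 28.2% GCGTG and 16.6% ACGTG at least once. Of the same windows, 6.9% held 3 or more CACCC and 2.8% held 3 or more GCGTG. These matches are descriptions of letters, and binding of Klf5 or HIF was not measured.

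Glucose enters the cell through the products of Slc2a1 and Slc2a3. Slc2a1 (ENSMUSG00000028645, chromosome 4, 119108711 to 119137983, plus strand, GRCm38) had a lowest value of 18.5, a median of 26.1 and a highest value of 29.4 TPM in controls. In Klf5OE libraries 1 to 5 it had 9.59, 5.71, 9.13, 9.20 and 7.31 TPM. Every overexpression library lay below the lowest control, and the means were 8.19 ± 1.64 TPM with overexpression (SD, n = 5) and 25.1 ± 4.00 TPM in controls (SD, n = 6). On the log2 scale it fell by 1.51 ± 0.16 (SE; limma adjusted p = 3.88e-05), and the 95% interval of the difference was -1.86 to -1.16. GLUT1 is also abundant in brain endothelium, whose markers summed to at most 1.06 TPM in any library. Whether a shift in any cell type had a part in the fall of Slc2a1 was not tested.

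Slc2a3, the gene of the high-affinity neuronal carrier GLUT3, was low and uneven. The annotation places the pseudogene Gm4482 over it on the same strand, at 0.781 TPM with overexpression and 1.67 TPM in controls. Slc2a3 itself had 0.561, 3.02, 5.06, 0.565 and 3.05 TPM in Klf5OE libraries 1 to 5, against a median of 0.689 and a highest value of 3.72 TPM in controls. The groups overlapped, and the change did not pass (log2 fold change 0.51, 95% interval -0.343 to 1.354, limma adjusted p = 0.732). As a share of the summed TPM of these carriers, Slc2a1 made up 77.8% ± 15.3 (SD, n = 5) with overexpression and 95.1% ± 4.34 (SD, n = 6) in controls. These shares overlapped, whereas the summed level was 8.72 to 14.2 TPM in the overexpression libraries and 18.99 to 30.02 TPM in controls.

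Lactate leaves through the monocarboxylate carriers. Slc16a1, the gene of MCT1, stood at 25.2 ± 5.46 TPM with overexpression (SD, n = 5) and 24.7 ± 3.06 TPM in controls (SD, n = 6), with a log2 fold change whose 95% interval ran from -0.30 to 0.32. Slc16a3, the gene of the hypoxia-inducible exporter MCT4, did not reach 1 TPM in any library and was not tested. Its highest values were 0.758 TPM in Klf5OE library 3 and 0.744 TPM in control library 3.

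**Figure D1:**
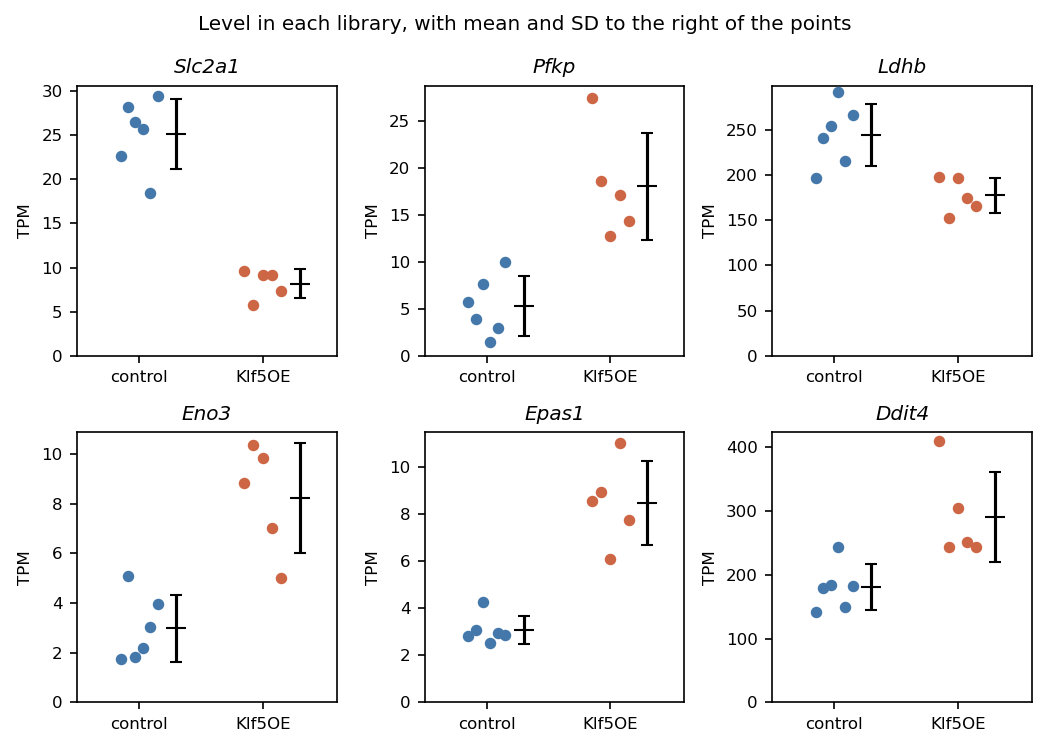
Levels in TPM (vertical axes, each starting at 0) of 3 changed members (top) and 3 changed genes from further pathway lists (bottom) in each control and Klf5OE library, with the mean and SD beside the points. Slc2a1 in Klf5OE libraries reached at most 9.59 TPM against at least 18.5 TPM in controls, and Pfkp was at least 12.7 TPM against at most 10.02 TPM.

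The preparatory steps of glycolysis, from hexokinase to triose phosphate isomerase, were represented by 8 tested genes, of which 1 rose and 0 fell. Pfkp (ENSMUSG00000021196, chromosome 13, 6579768 to 6648777, minus strand) had 27.5, 18.7, 12.7, 17.1 and 14.4 TPM in Klf5OE libraries 1 to 5. The controls ran from 1.47 through a median of 4.84 to 10.02 TPM. All 5 overexpression libraries lay above the highest control, although the controls themselves were widely spread. On the log2 scale it rose by 1.72 ± 0.32 (SE; limma adjusted p = 0.00485), and the 95% interval of the difference was 1.03 to 2.40. Without a filter on low values the call was lost (limma adjusted p = 0.0508, against 0.00182 to 0.018 in the other alternatives). Pfkp shares an identical stretch of 748 transcript bases with Pitrm1, a mitochondrial peptidase gene on the opposite strand, and Pitrm1 stood at 34.2 TPM with overexpression and 37.8 TPM in controls.

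The other phosphofructokinase genes did not pass the test. Pfkm, the muscle type, had 36.1 ± 5.84 TPM with overexpression (SD, n = 5) and 43.8 ± 3.59 TPM in controls (SD, n = 6), a log2 fold change of -0.28 with a limma adjusted p of 0.364. Pfkl, the liver type, had 24.2 ± 8.22 TPM with overexpression (SD, n = 5) and 26.0 ± 5.41 TPM in controls (SD, n = 6), and its adjusted p was 0.905. The summed level of the family spanned 55.8 to 93.9 TPM with overexpression and 61.1 to 86.6 TPM in controls. Pfkp gave 14.5 to 29.3% of the family's TPM in the overexpression libraries and 1.91 to 12.9% in controls. Pfkm gave 40.7 to 50.1% and 54.1 to 63.7%, and neither isozyme's shares overlapped between the groups. Pfkl shares overlapped, at 25.0 to 40.7% and 27.1 to 40.5%. Multiplying a library by a single factor leaves these shares as they are, and shares were not computed after quantile normalization.

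**Figure D2:**
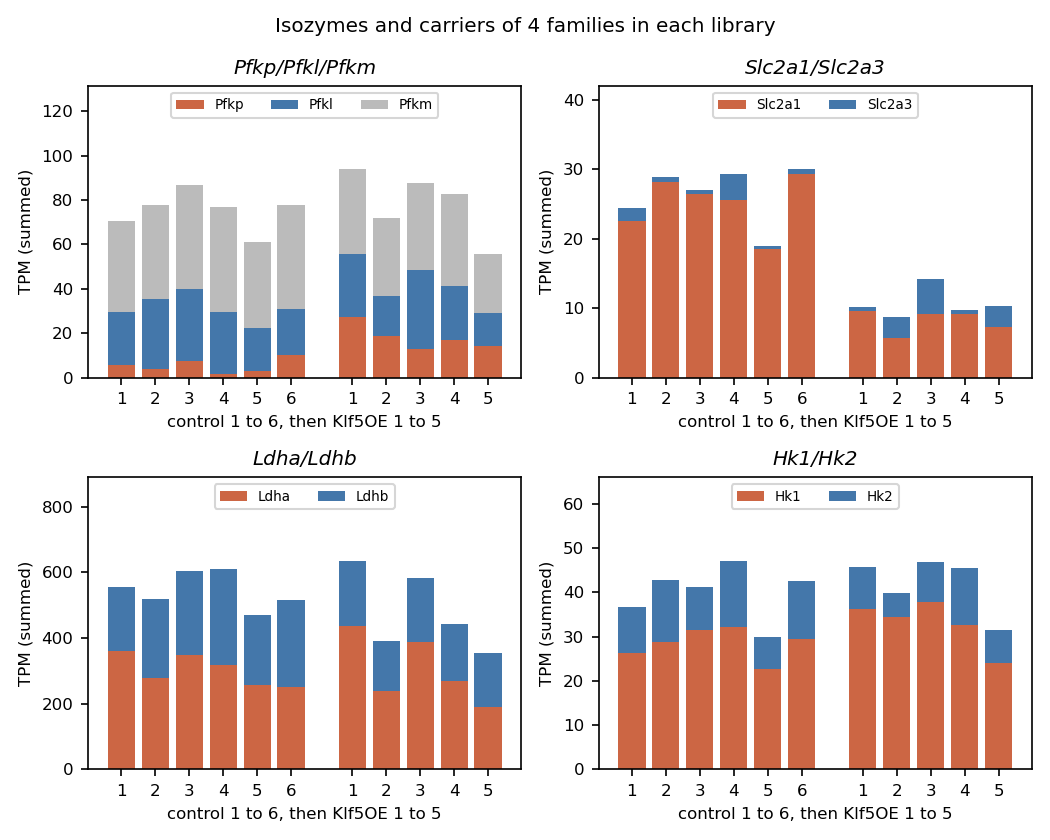
Stacked bars give the TPM of each family member in control libraries 1 to 6 and Klf5OE libraries 1 to 5, for phosphofructokinases, glucose carriers, lactate dehydrogenase subunits and hexokinases. Pfkp took 14.5 to 29.3% of its family in the overexpression libraries and 1.91 to 12.9% in controls, and the glucose carrier sum stayed at or under 14.2 TPM with overexpression.

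Hexokinase, which traps glucose as glucose phosphate, showed no changed gene. Hk1, the constitutive brain form, had 33.0 ± 5.38 TPM with overexpression (SD, n = 5) and 28.5 ± 3.56 TPM in controls (SD, n = 6), and Hk2, the inducible form, 8.91 ± 2.76 TPM with overexpression (SD, n = 5) and 11.5 ± 2.94 TPM in controls (SD, n = 6). Hk1 made up 71.5 to 86.2% of their sum with overexpression and 67.5 to 76.5% in controls, which overlapped. Gpi1, the isomerase that follows, was below the control mean in all 5 overexpression libraries, at 155 ± 23.1 TPM with overexpression (SD, n = 5) and 191 ± 18.9 TPM in controls (SD, n = 6). The difference of -0.31 on the log2 scale had an unadjusted 95% interval of -0.56 to -0.05 and did not pass (limma adjusted p = 0.244). Aldoa, which cleaves the hexose bisphosphate, and Tpi1, which interconverts the trioses, had log2 fold changes of -0.13 and -0.14 and overlapping libraries. Aldoa was the most abundant gene of this part of the pathway, at 324 to 490 TPM and 341 to 544 TPM.

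The pay-off steps, which yield ATP and pyruvate, had 6 tested genes and no changed member. Pgk1, which encodes phosphoglycerate kinase and is a classic HIF target, had the smallest p of them. It stood at 424, 298, 441, 401 and 308 TPM in Klf5OE libraries 1 to 5, against 405, 450 and 535 TPM as the lowest, median and highest controls. All 5 overexpression libraries lay below the control mean but overlapped the controls, and the limma adjusted p was 0.341. With quantile normalization it was 0.0319, and 0.0472 after removal of the ribosomal RNA-like rows, and it reached 0.639 among the other alternatives. Pkm, the pyruvate kinase gene of the M1 and M2 forms, which gene-level TPM does not separate, was the most abundant member, at 764 ± 137 TPM with overexpression (SD, n = 5) and 913 ± 102 TPM in controls (SD, n = 6), with an adjusted p of 0.454. Pgam1, a phosphoglycerate mutase gene, had 160 against 178 TPM and an adjusted p of 0.729.

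Gapdh and Eno1 need care because near copies elsewhere in the genome share their sequence. Gapdh, the gene of glyceraldehyde phosphate dehydrogenase, was listed at only 46.2 ± 20.7 TPM with overexpression (SD, n = 5) and 47.5 ± 7.43 TPM in controls (SD, n = 6), far under its pathway neighbours. A search of annotated transcripts at 95% identity over 200 bases or more found 93 other genes that match it, of which 23 averaged at least 1 TPM in either group. Together these copies held 531 and 618 TPM, well above the Gapdh row itself. With the copies added, the summed level was 577 ± 136 TPM with overexpression (SD, n = 5) and 666 ± 66.8 TPM in controls (SD, n = 6). Eno1, the ubiquitous enolase gene, had 328 ± 60.8 TPM with overexpression (SD, n = 5) and 310 ± 124 TPM in controls (SD, n = 6), and its 4 near copies, led by Eno1b and Gm4735, summed to 113 and 86.3 TPM. Eno2, the neuronal enolase gene, had at most 5.69 TPM in any library.

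Lactate dehydrogenase interconverts pyruvate and lactate, with Ldha (muscle type) and Ldhb (heart type) giving its subunits. Ldhb (chromosome 6, 142490249 to 142507957, minus strand) had 198, 152, 196, 175 and 166 TPM in Klf5OE libraries 1 to 5, against 196, 247 and 291 TPM as the lowest, median and highest controls. All 5 lay below the control mean, and the groups met at the lowest control. On the log2 scale it fell by 0.45 ± 0.12 (SE; limma adjusted p = 0.0477). Leaving out single libraries ended that call in 9 of 11 fits (limma adjusted p from 0.0255 to 0.12, all but those without control library 1 or Klf5OE library 1), as did 5 of 9 other settings. Ldha stood at 304 ± 104 TPM with overexpression (SD, n = 5) and 302 ± 47.8 TPM in controls (SD, n = 6), with 437 TPM in Klf5OE library 1 and 190 TPM in Klf5OE library 5. Ldha made up 53.4 to 68.8% of the sum of the pair with overexpression and 48.3 to 64.8% in controls, which overlapped.

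The summed level of the 16 glycolytic and lactate dehydrogenase genes differed widely among the overexpression libraries. It was 3576, 2504, 3310, 3191 and 2349 TPM in Klf5OE libraries 1 to 5, against 3147 to 3678 TPM in controls. Klf5OE libraries 2 and 5, the lowest, were also the pair with the smallest listed totals, 772597 and 730832 TPM. Their ribosomal RNA-like shares, 30.2 and 29.2%, were the highest of the overexpression libraries, and libraries 1, 3 and 4 had 12.4, 21.6 and 16.6%. Control libraries 1 and 5 had similar shares, 29.9 and 31.2%, with summed enzyme levels of 3254 and 3147 TPM. After trimmed-mean scaling, which sets the libraries to a common level over most genes, the sums were 2872 to 3175 in the overexpression libraries and 2997 to 3545 in controls. The part of these totals and shares in the small shifts of the abundant enzymes was not tested.

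**Figure D3:**
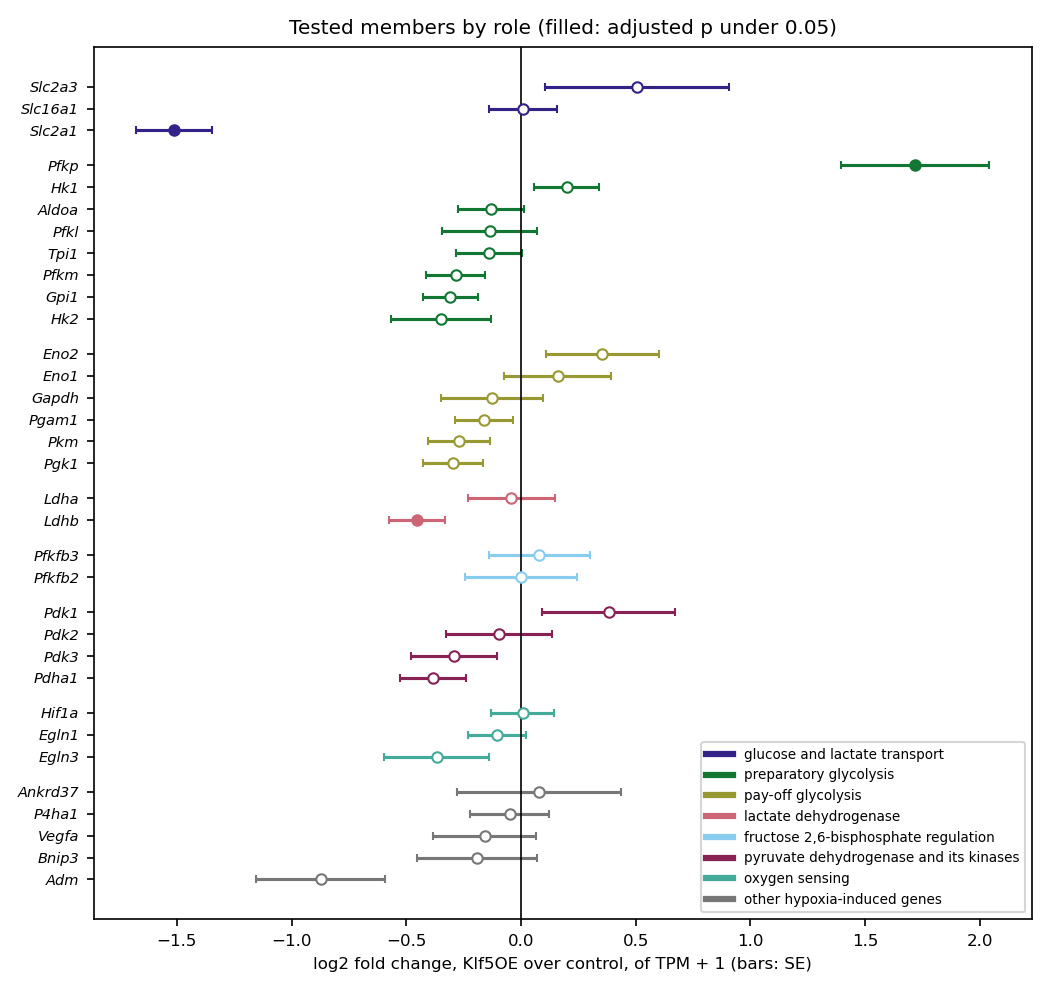
The log2 fold change of TPM + 1, overexpression over control, with its SE for each of the 33 tested members (vertical axis), grouped by role, with filled points for an adjusted p under 0.05. Slc2a1 (-1.51), Pfkp (1.72) and Ldhb (-0.45) are filled, and 22 of the 33 points lie below 0.

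The bifunctional enzymes of Pfkfb2 and Pfkfb3 set the level of the allosteric activator of phosphofructokinase. Pfkfb3, the inducible form, had 7.17, 5.20, 5.49, 7.18 and 3.52 TPM in Klf5OE libraries 1 to 5, within the control range of 3.72 to 7.88 TPM except for the last. Pfkfb2 ran from 2.38 to 6.74 TPM and from 2.56 to 5.79 TPM, and it shares exonic sequence with the overlapping gene Gm29427. Their log2 fold changes were 0.08 and 0.00186, with 95% intervals of -0.39 to 0.55 and -0.52 to 0.52.

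Pyruvate dehydrogenase makes acetyl-CoA and is switched off by the kinases Pdk1, Pdk2 and Pdk3. Pdha1, its catalytic subunit gene on the X chromosome, had 167, 106, 114, 140 and 95.1 TPM in Klf5OE libraries 1 to 5, against 132, 164 and 184 TPM as the lowest, median and highest controls. Of the 5, 4 lay below the control mean, and the difference on the log2 scale was -0.38 ± 0.14 (SE; limma adjusted p = 0.218). It passed under each of the other scalings, with adjusted p of 0.0174 with trimmed-mean scaling, 0.0168 with quantile normalization and 0.013 without the ribosomal RNA-like rows, and it reached 0.426 among the other alternatives. Pdk1, the HIF-induced kinase, had 6.11 ± 2.63 TPM with overexpression (SD, n = 5) and 4.45 ± 1.99 TPM in controls (SD, n = 6), Pdk2 7.14 against 7.73 TPM, and Pdk3 6.96 against 8.85 TPM. None of the kinases passed, and their summed level was 20.2 ± 5.62 TPM with overexpression (SD, n = 5) and 21.0 ± 5.41 TPM in controls (SD, n = 6).

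The oxygen-sensing genes showed no changed member among 3 tested. Hif1a, the gene of an oxygen-regulated HIF subunit, stood at 59.9 ± 7.25 TPM with overexpression (SD, n = 5) and 60.1 ± 11.02 TPM in controls (SD, n = 6). Its log2 fold change had a 95% interval of -0.29 to 0.30, and the annotation places Gm49321 over it on the same strand at 44.7 and 41.2 TPM. Egln1, the main prolyl hydroxylase gene, had 64.8 against 69.4 TPM. Egln3, a hydroxylase gene that HIF itself induces, had 3.00, 4.80, 6.77, 4.35 and 5.64 TPM in Klf5OE libraries 1 to 5 and 3.52 to 9.32 TPM in controls, a difference on the log2 scale of -0.37 ± 0.23 (SE; limma adjusted p = 0.615). HIF activity is controlled largely at the protein level, which these data do not measure.

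Of the 8 other hypoxia-induced genes, 5 could be tested and none changed. Adm, the gene of the vasodilator peptide adrenomedullin, had the smallest p. It stood at 10.6, 13.6, 4.00, 7.82 and 9.17 TPM in Klf5OE libraries 1 to 5, against 9.03, 16.04 and 29.2 TPM as the lowest, median and highest controls. All 5 lay below the control mean with overlap, and the difference on the log2 scale was -0.87 ± 0.28 (SE; limma adjusted p = 0.126, or 0.041 with array weights and up to 0.355 in other alternatives). Vegfa, the angiogenic growth factor gene, had 31.9 ± 7.204 TPM with overexpression (SD, n = 5) and 36.4 ± 10.7 TPM in controls (SD, n = 6). P4ha1, a collagen prolyl hydroxylase gene, had 16.1 against 17.0 TPM, and Bnip3, a mitophagy receptor gene, 7.73 against 9.04 TPM. Ankrd37, an ankyrin repeat gene, averaged 1.98 and 1.75 TPM.

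The members not tested besides Slc16a3 were Car9, Ndrg1 and P4ha2. Car9, the carbonic anhydrase gene used as a marker of hypoxic cells, was listed at 0 in 3 of 5 overexpression and 5 of 6 control libraries and its highest value was 0.195 TPM. Ndrg1, a hypoxia- and differentiation-linked gene, ran from 0 to 1.07 TPM, with 1.01 TPM its highest control. P4ha2, the second subunit form of collagen prolyl hydroxylase, was at most 0.488 TPM.

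Several low-level hypoxia genes, picked after their values were seen, were highest in the same overexpression library. Their highest controls were split between libraries. Among the overexpression libraries, library 3 had the highest Ankrd37 (5.18 TPM), Bnip3 (13.1 TPM), Pdk1 (10.1 TPM), Egln3 (6.77 TPM) and Slc2a3 (5.06 TPM), and the lowest Adm (4.00 TPM). Car9 was also highest there, at only 0.144 TPM. Other hypoxia-induced members peaked elsewhere: Vegfa in Klf5OE library 4 (37.6 TPM), P4ha1 and Ndrg1 in library 1 (20.4 and 1.07 TPM), and P4ha2 in library 5 (0.4 TPM). Among controls, library 3 had the highest Bnip3 (16.3 TPM) and Pdk1 (7.76 TPM), while library 4 had the highest Ankrd37 (4.17 TPM), Egln3 (9.32 TPM) and Slc2a3 (3.72 TPM). Slc2a1 in Klf5OE library 3, at 9.13 TPM, stayed with the other overexpression libraries.

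**Figure D4:**
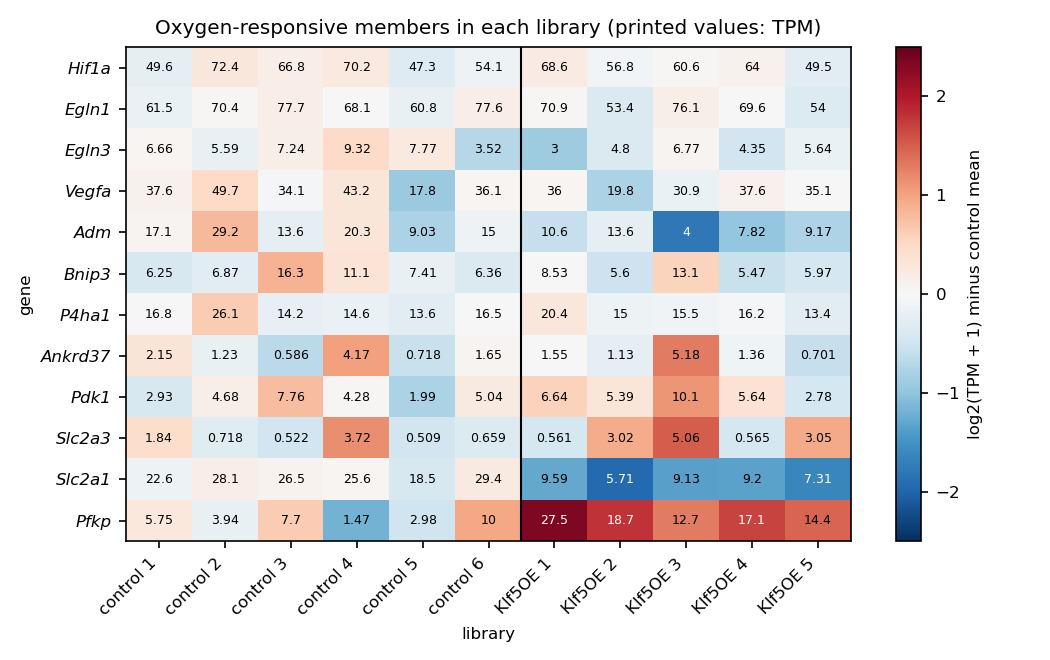
Colour gives log2(TPM + 1) minus the control mean of the same gene, and printed values give TPM, for 12 oxygen-responsive members (rows) in 6 control and 5 Klf5OE libraries (columns). Slc2a1 is low and Pfkp high in all 5 Klf5OE columns, while Ankrd37, Bnip3, Pdk1 and Slc2a3 stand high in Klf5OE library 3.

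Genes next to these in the same pathways were taken from 7 further lists with 90 genes, of which 62 could be tested, 3 rose and 0 fell, beside the same 2.29% and 1.43% of all tested genes. Among 8 tested genes of other HIF pathway factors 1 rose. This was Epas1, which encodes HIF2 alpha, another oxygen-regulated HIF subunit. It had 8.55, 8.92, 6.11, 11.0 and 7.75 TPM in Klf5OE libraries 1 to 5, all above the highest control of 4.26 TPM, and the control median was 2.91 TPM. The means were 8.48 ± 1.80 TPM with overexpression (SD, n = 5) and 3.08 ± 0.612 TPM in controls (SD, n = 6), a 2.75-fold ratio, and on the log2 scale it rose by 1.21 ± 0.19 (SE; limma adjusted p = 0.000911). Its partners and regulators Arnt, Egln2, Hif1an and Vhl had log2 fold changes of 0.02, 0.07, 0.10 and -0.20, and none passed. Cited2, from the same list, lay above the control mean in all 5 overexpression libraries, at 16.7 against 12.4 TPM. Its log2 fold change of 0.43 did not pass either (limma adjusted p = 0.442). Arnt2, the neural partner subunit gene, had 38.5 against 50.2 TPM and an adjusted p of 0.363.

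Of 6 tested further glycolytic isozymes, Eno3, the muscle enolase gene, rose. It had 8.86, 10.4, 9.85, 7.03 and 5.02 TPM in Klf5OE libraries 1 to 5, against 1.75, 2.62 and 5.09 TPM as the lowest, median and highest controls. The ranges met at Klf5OE library 5, and the 2.76-fold ratio of means came with a rise of 1.24 ± 0.25 on the log2 scale (SE; limma adjusted p = 0.00768). Aldoc, the brain aldolase gene, had 76.8 against 97.8 TPM and an adjusted p of 0.229. Of 21 tested hypoxia-induced genes outside the members, Ddit4, a stress-induced inhibitor of mTORC1, rose. It had 410, 243, 304, 252 and 244 TPM in Klf5OE libraries 1 to 5, against 142, 181 and 244 TPM as the lowest, median and highest controls, so the groups met at the highest control. On the log2 scale it rose by 0.68 ± 0.16 (SE; limma adjusted p = 0.024). The call was lost without control library 1 (0.0519), control library 5 (0.0591), Klf5OE library 1 (0.0504) or Klf5OE library 3 (0.0575), and under 3 of 9 other settings.

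The remaining lists held no changed gene. Of 5 tested further carriers, Slc2a10 had 7.05, 5.13, 1.39, 3.38 and 0.899 TPM in Klf5OE libraries 1 to 5 against at most 1.87 TPM in controls. The groups overlapped, and the difference did not pass (limma adjusted p = 0.207). Of 5 tested further flux regulators, Gpd2, the mitochondrial glycerol phosphate dehydrogenase gene, had 9.49 against 14.5 TPM (adjusted p = 0.161). Pdp2, a phosphatase gene that reactivates pyruvate dehydrogenase, had 4.25 against 5.93 TPM among 10 tested genes of that list (adjusted p = 0.452). G6pdx, the entry enzyme of the pentose phosphate pathway, had 44.5 against 38.3 TPM among 7 tested genes of that pathway (adjusted p = 0.646).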

How the data were processed

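The tools DESeq2, HISAT2, HTSeq and StringTie, with no role or version, and the build GRCm38.p5 are named per the submitters' processing notes. The deposited values are TPM, made by the authors in 1 table with a column for each library. No annotation release or strand setting is given in the sources used here. Sequencing depth is unknown from TPM, so precision comes from the spread between libraries. The p-values weigh the group difference against that spread, moderated by the variance trend over all tested genes.

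From the table, 53255 of 53453 rows were matched to a symbol, and Ero1a through its older symbol. The 13549 genes that reached 1 TPM in 5 or more libraries were tested as log2(TPM + 1), a pseudocount of 1, by the moderated two-sided test of limma 3.58.1 in R 4.3.3. Its variance trend followed the mean, and p-values were Benjamini-Hochberg adjusted at 0.05. This scale understates the change of low genes. The script was tested on simulated data. Trimmed-mean factors (30% of ratios and 5% of levels trimmed) were computed from TPM, near copies found with blastn 2.17.0 on GENCODE M21 transcripts, and promoters taken from RefSeq, where 35 of 37 members had an entry. Isozyme shares were given without a test.

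For changed members and the member with the smallest p in each role, the value in every overexpression library is given, with controls by their range and mostly their median. Of each further list the changed genes, or else the gene with the smallest p, are named; genes of further lists beyond these, such as Arnt and Aldoc, were chosen after their values were seen. Members and lists were chosen with earlier results of these data known. Alternatives were 3 other scalings, array weights, a filter of 5 TPM or none, a pseudocount of 0.1, a constant prior variance, a block for the replicate number, and the omission of each library.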

Additional observations from a re-analysis of the deposited data

Results flagged for a closer look

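A library stood apart from the rest of its group, by the ratio of its gap to the group's range, in 8 of 80 groups of values for the members and the 3 changed genes of further lists. For normally distributed values chance gives about 1 in 20. TPM near 0 need not be so distributed, and every flagged value was a high one, so the count is not read as an excess over chance. Slc16a3 had 0.758 TPM in Klf5OE library 3 and at most 0.0629 TPM in the other overexpression libraries. Ankrd37 had 5.18 TPM in the same library and at most 1.55 TPM in the others. Car9 had 0.195 TPM in control library 3 and was listed at 0 in the other controls. Ndrg1 had 1.01 TPM in control library 1 and at most 0.453 TPM in the other controls, and 1.07 TPM in Klf5OE library 1 and at most 0.295 TPM in the others. P4ha1 had 26.1 TPM in control library 2 and 13.6 to 16.8 TPM in the other controls. P4ha2 had 0.488 TPM in control library 4 and at most 0.155 TPM in the others. Epas1 had 4.26 TPM in control library 3 and 2.51 to 3.07 TPM in the others, still below the lowest overexpression library at 6.11 TPM.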

How the results depend on the processing

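Slc2a1 kept its direction and its call in all 20 alternative fits (adjusted p at most 0.000924), as did Eno3 (at most 0.0481) and Epas1 (at most 0.0141). Pfkp lost its call in 1 fit, without a filter, so that 0 members were higher there. The number of lower members was 1 without a filter, with a filter of 5 TPM, with a pseudocount of 0.1, without the variance trend and with the replicate block, the 5 settings that ended the Ldhb call, and 4 with quantile normalization and without the ribosomal RNA-like rows, where Pgk1 and Pdha1 passed too. It was 3 with trimmed-mean scaling and with array weights, and 1 to 2 when each library was left out. The Ddit4 call was lost without a filter, without the variance trend and with the block. The log2 fold change of Pfkfb3 ran from -0.000296 without Klf5OE library 4 to 0.2139 without Klf5OE library 5. Of the 33 tested members, 23 kept their sign in every fit, and the 10 others had log2 fold changes of at most 0.14 in size. Same-numbered libraries deviated together in 1 of 5 pairs (r from -0.04 to 0.30), so the numbers were not taken as pairs; 1 of 5 overexpression libraries was closest to its own number, and the block, which drops control library 6, gave 420 changed genes against 408 on the same 10 libraries without it. The causes of lost calls were not tested. Depth is unknown, so no counting error can be given for genes near or under 1 TPM, and 4 members were left untested by the filter.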

Other observations

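Eno1 levels fell into 2 separate ranges among the controls. Control libraries 1, 2 and 5 had 357, 472 and 425 TPM, and control libraries 3, 4 and 6 had 206, 210 and 188 TPM, while the overexpression libraries had 244 to 391 TPM. With its 4 near copies added, the same controls stood at 563, 528 and 483 TPM and at 275, 274 and 253 TPM.

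Near copies of Eno1 were uneven as well. They summed to 207 TPM in control library 1, 221 TPM in Klf5OE library 1 and 207 TPM in Klf5OE library 3, and to 40.7 to 68.9 TPM in each of the other libraries. Among the copies of Gapdh, Gm13394 had 251, 256 and 255 TPM in control libraries 1 and 2 and Klf5OE library 3, and 28.4 to 52.2 TPM in each of the others. The summed level of Gapdh with all its copies was 431 to 726 TPM with overexpression and 582 to 757 TPM in controls.

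Mpc1, a subunit gene of the mitochondrial pyruvate carrier, had 9.02 TPM in control library 5 and 4.26 TPM in Klf5OE library 4, against 17.6 to 40.1 TPM in the other libraries. Mpc2, the other subunit gene, had 33.3 and 34.5 TPM in these libraries, within the range of the rest. These genes were chosen after their values were seen.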
